A study of Mus musculus with 18 samples.

Results

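The comparison described here set mouse livers without hepatic FXR after GW4064 (3 arrays) against livers of wild-type (WT) mice after GW4064 (3 arrays). These 6 arrays were taken by their sample titles from a series of 18 arrays in 6 groups of 3. FXR, encoded by Nr1h4, is a nuclear receptor that bile acids activate, and GW4064 is a synthetic agonist of it. The knockout (KO) mice were labelled Liver Fxr KO in the genotype field and AFXR Cre+ in the design text, and the driver of the Cre is not given in the sources used here. The WT mice were labelled Wildtype, and all mice were males aged 10 to 16 weeks on a C57BL/6J background. Per the labels, GW4064 was given by oral gavage at 150 mg per kg in the evening and again the next morning, and livers were taken 2 hours after that. The paper's methods, whose array study describes WT mice only, give a lower dose in more administrations with a fast. Whether they describe these mice is not known, and the values do not decide between the accounts. The groups without the agonist were liver KO with vehicle and WT with vehicle, and a further comparison used whole-body Fxr KO mice with GW4064 (n = 3 each, same sex, age and background). Whether control mice were littermates is not stated, and each array is taken as 1 mouse.

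In hepatocytes, activated FXR raises Nr0b2, the gene of the repressor SHP, and thereby lowers the enzymes that make bile acids from cholesterol. In the ileum it raises Fgf15, a hormone that reaches the liver through Fgfr4 and its coreceptor Klb and lowers the same enzymes. It also acts on bile acid export, lipoproteins and glucose metabolism. A liver knockout removes the receptor from the liver and leaves the intestinal receptor in place, so that an oral agonist can still act there. The comparison addresses which genes differ between livers without and with hepatic FXR when the agonist is present.

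The deposited values are log2 expression per probe set after RMA, so a difference of 1 is a 2-fold difference. Array medians lay between 5.96 and 6.00, and 12394 genes were tested with limma on all 18 arrays, with Benjamini-Hochberg adjustment of the p-values over all of them. A gene was called at an adjusted p under 0.05. The interquartile range of relative expression was 0.153 to 0.19 in the KO arrays with GW4064, and it was widest of all 18 arrays in WT GW4064 array 1 (0.259). WT GW4064 array 3 was most like a vehicle array (r = 0.99516 across genes with WT vehicle array 1), and its mean correlation with its own group was 0.99134. Whole-body KO GW4064 array 3 had the lowest mean correlation with its group (0.98711). Of 4 measured hepatocyte markers none was called, and their mean level was 14.58 to 14.62 in KO livers and 14.46 to 14.65 in WT livers with GW4064. Of 6 neutrophil, 2 exocrine pancreas and 3 gut markers none was called. S100a8 and S100a9 of the neutrophil list had differences of -1.40 and -1.25, and Cela1 of the pancreas list had 1.29 (adjusted p = 0.186, 0.195 and 0.175). The remaining members did not follow: the other neutrophil markers had -0.02 to 0.15, and Cpa1 of the pancreas list had -0.06.

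Nr1h4 (chr10:89454234-89533645, GRCm38.p6) was examined first as a check of the genotype. It read 4.17, 4.68 and 4.37 in KO livers with GW4064, against 8.99, 8.94 and 9.15 in WT livers with GW4064. The KO arrays were far below the WT arrays, by 4.62 on the log2 scale (standard error 0.14, 24.6 fold, adjusted p = 2.86e-12, limma). With vehicle the difference was -4.61. Whole-body KO livers with GW4064 read 4.14, 4.30 and 3.98, and the liver KO arrays lay 0.27 above them (95% interval of the difference from -0.04 to 0.57, adjusted p = 0.407).

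With GW4064, 42 genes were higher and 89 were lower in KO than in WT livers, 131 in all. These are 0.339%, 0.718% and 1.06% of the genes tested. In 130 of the 131 the 3 KO arrays lay wholly on one side of the 3 WT arrays, which was the case for 17.8% of all genes, and Il1r1 was the exception. The median size of the called differences was 0.69 on the log2 scale, 10 genes were at least 2 fold higher and 23 at least 2 fold lower. The median difference over all genes was -0.003. WT GW4064 array 3 decided much of the count: without it, 184 genes were higher and 234 lower. Without WT GW4064 array 1, 10 were higher and 34 lower. The counts were 16 and 32 without KO GW4064 array 1, 23 and 44 without KO GW4064 array 2, and 26 and 65 without KO GW4064 array 3.

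Genes of bile acid handling showed a small loss of the exporter and of 1 enzyme, while the large differences of the first enzymes did not pass the test. Of 19 measured genes of bile acid synthesis and conjugation, 1 fell, none rose and 18 were not called (median 0.06, against -0.003 over all genes). Of 13 measured transport genes, 1 fell and none rose (median -0.02). Over all genes, 0.718% fell and 0.339% rose. Nr0b2 read 8.79, 9.04 and 8.66 in KO livers, against 10.84, 9.59 and 9.04 in WT livers with GW4064. The highest KO array (9.035) nearly met the lowest WT array (9.044), and the difference of -0.997 (standard error 0.34, adjusted p = 0.183) did not pass. With vehicle, Nr0b2 read 7.56 to 8.18 in KO livers and 7.85 to 8.21 in WT livers, so that all 3 KO arrays with GW4064 lay above all KO arrays with vehicle.

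Cyp7a1, which catalyses the first and rate-limiting step towards bile acids, read 9.64, 10.04 and 10.17 in KO livers, against 5.82, 7.18 and 10.19 in WT livers with GW4064. WT array 3 was as high as the KO arrays and the other WT arrays were far below. The difference was 2.22 (standard error 0.69, 95% interval 0.76 to 3.69, adjusted p = 0.137), and without WT array 3 it was 3.45 (adjusted p = 0.00015). Without WT array 1 it was 1.27 (adjusted p = 0.563). Cyp8b1, the hydroxylase needed for cholic acid, read 11.30, 10.48 and 11.61 in KO livers, against 8.12, 9.79 and 10.46 in WT livers. The lowest KO array lay just above the highest WT array, and the difference of 1.67 (standard error 0.42, adjusted p = 0.0623) did not pass, while without WT array 3 it was 2.18 (adjusted p = 0.00605). With vehicle, the KO minus WT differences were 0.33 for Cyp7a1 and 0.11 for Cyp8b1. Nr0b2, too, was called without WT array 3 (-1.39, adjusted p = 0.0308). Without WT array 1 the difference was 1.004 for Cyp8b1 and -0.488 for Nr0b2 (adjusted p = 0.233 and 0.672). Cyp7a1, Cyp8b1 and Nr0b2 were not called when any array but WT array 3 was left out.

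Akr1d1, the reductase that sets the steroid ring form of bile acids, was the enzyme that fell. It read 8.94, 9.13 and 9.50 in KO livers, against 9.86, 10.00 and 10.19 in WT livers with GW4064, with no overlap. The difference was -0.83 (standard error 0.17, adjusted p = 0.0236, limma), and its second probe set was lower as well (-0.62). The call was lost without KO array 1 (adjusted p = 0.133), KO array 2 (0.0834), WT array 1 (0.0535) or WT array 2 (0.0597).

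Abcb11, the bile salt export pump and a classic FXR target, read 10.87, 10.83 and 11.01 in KO livers, against 11.46, 11.45 and 11.66 in WT livers with GW4064. Every KO array was below every WT array, and the difference was -0.62 (standard error 0.14, 1.54 fold, adjusted p = 0.0478). With vehicle it was -0.57 (adjusted p = 0.0773). The adjusted p was 0.0729 to 0.152 when any 1 of the 6 arrays was left out, so each of them decided the call, while the difference itself stayed between -0.68 and -0.55. Its start site region is shown because it holds the base order that FXR is known to bind, an inverted repeat of AGGTCA with a spacer of 1 base (IR1, AGGTCANTGACCT, which reads the same on both strands). The capitals mark the best match, with 1 base that differs, in the RefSeq window of GRCm38.p6 at chr2:69342567-69342866, minus strand:
Abcb11: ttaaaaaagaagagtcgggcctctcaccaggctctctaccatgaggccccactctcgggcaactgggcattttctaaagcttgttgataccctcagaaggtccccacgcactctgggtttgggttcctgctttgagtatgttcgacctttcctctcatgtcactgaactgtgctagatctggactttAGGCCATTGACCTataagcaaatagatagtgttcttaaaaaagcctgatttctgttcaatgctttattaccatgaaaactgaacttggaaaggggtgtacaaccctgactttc

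Windows of 300 bases, 250 before and 50 after a start site, were found for 9888 measured genes. None held IR1 without a mismatch, and 10 genes (0.101%) held it with 1. Of these 10, Abcb11 was the one that was called in KO against WT livers with GW4064. The others were D7Ertd128e, Nbr1, Rarg, Rpl3l, Steap3, Tbc1d14, the acute-phase gene Saa4, the hepatic uptake transporter gene Slco1b2 and the retinol dehydrogenase gene Rdh9. The elements of Abcb11 and of the 3 last named are set out to show how alike they are, with capitals for the bases that match the repeat:
Abcb11, chr2:69342667-69342679: AGGcCAtTGACCT
Saa4, chr7:46732694-46732706: AGGcCAcTGACCT
Slco1b2, chr6:141629430-141629442: AGGaCAgTGACCT
Rdh9, chr10:127776326-127776338: AGGTCAaTGACCa
The KO minus WT difference with GW4064 was -0.35 for Saa4, 0.11 for Slco1b2 and -0.48 for Rdh9, with adjusted p-values of 0.475, 0.835 and 0.447. These 3 were chosen after their values were seen. With up to 2 mismatches allowed, 1.26% of all these genes, 1.35% of the 74 called lower and 0% of the 33 called higher held the repeat. A match is a description of the letters, not a site.

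The other genes of the SHP and FGF15 branch did not differ beyond the test. Abcb4, the phospholipid exporter of the canalicular membrane, had 0.003 (95% interval -0.27 to 0.28), with a sign that changed between settings. Fgfr4 had -0.19 (-0.47 to 0.10) and Klb had -0.04 (-0.46 to 0.38), its sign also depending on the setting. Fgf15 and Slc51a, a basolateral bile acid exporter subunit, read 4.25 to 4.46 and 4.54 to 4.57 in KO livers, against 4.33 to 4.70 and 4.31 to 4.51 in WT livers, with neither called. Csad, an enzyme of taurine synthesis, read 8.45, 8.94 and 8.17 in KO livers, against 8.14, 8.59 and 9.49 in WT livers with GW4064. These groups overlapped (difference -0.22, adjusted p = 0.825, and 0.16 without WT array 3). With vehicle, Csad read 10.21 to 10.88 in KO livers and 11.38 to 11.59 in WT livers. It read 10.49, 11.52 and 11.40 in whole-body KO livers with GW4064, and the liver KO was 2.61 lower than these (standard error 0.30, adjusted p = 0.00076). Of 13 measured genes of taurine and sulfur amino acids none was called, and 12 had differences below 0 (median -0.11).

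**Figure D1:**
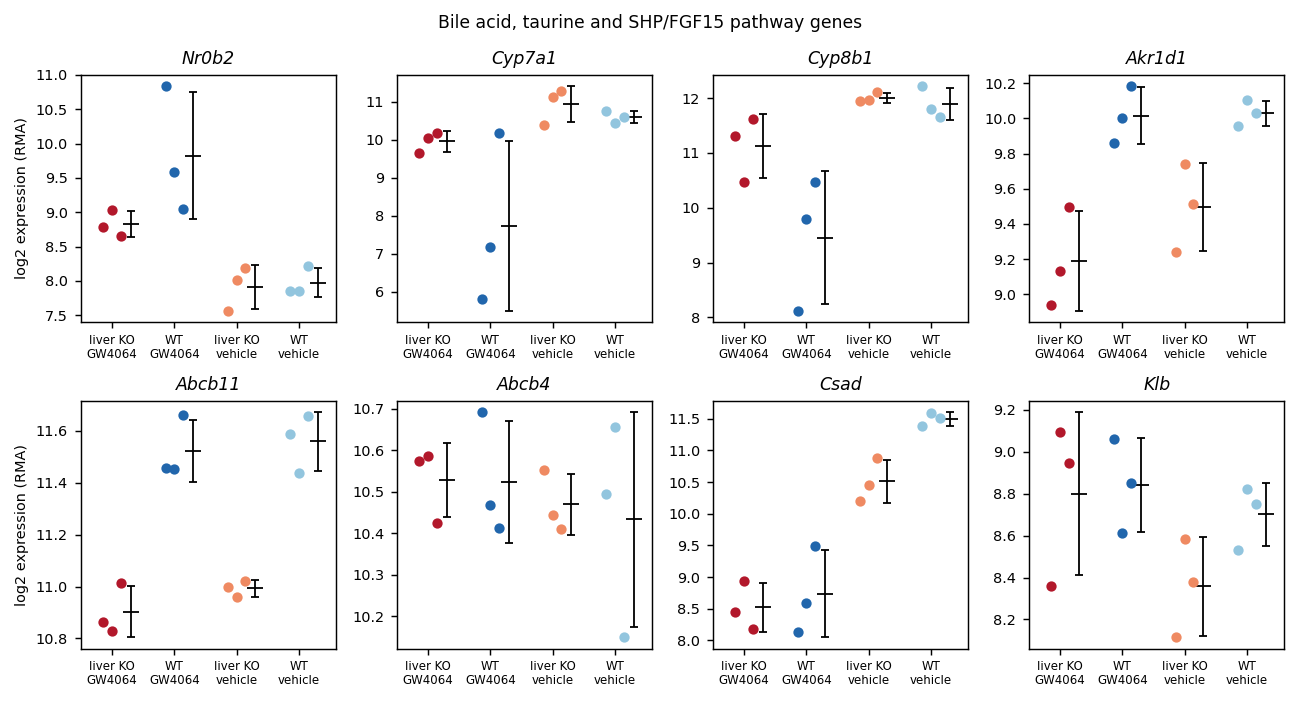
Log2 expression of 8 genes on each array, in liver KO with GW4064, WT with GW4064, liver KO with vehicle and WT with vehicle. Each point is 1 array, and bars give mean and SD (n = 3). Each gene has its own axis. For Abcb11 the KO arrays with GW4064 lie between 10.83 and 11.01, below the WT arrays, whereas for Cyp7a1 one WT array at 10.19 lies level with the KO arrays.

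Ces1g, a liver carboxylesterase that acts on triglyceride, had the largest fall after Nr1h4 among the called genes. It read 6.73, 6.49 and 7.27 in KO livers, against 9.13, 10.15 and 10.50 in WT livers with GW4064. The groups were far apart, with a difference of -3.10 (standard error 0.30, 8.55 fold, adjusted p = 4.01e-05). With vehicle it was 11.8 fold lower in the KO. Of 8 measured carboxylesterases it was the only one called, and their median was 0.23 (0.04 without WT GW4064 array 1). Sequences of related carboxylesterases are close, and a probe set can read more than 1 of them.

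Hal, the first enzyme of histidine breakdown, read 8.92, 9.04 and 9.76 in KO livers, against 11.52, 11.18 and 10.997 in WT livers with GW4064. The difference was -1.996 (standard error 0.26, adjusted p = 0.00077), and with vehicle -1.66 (adjusted p = 0.00444). Hal (chr10:93488768-93516761) lies 4.03 Mb from Nr1h4 on chromosome 10. Among 160 other measured genes within 10 Mb of Nr1h4, 5 were called with GW4064 (3.12%), against 0.752% of the rest of the chromosome and 1.03% of the genes elsewhere. They were Hal, Timp3, Elk3, Bsg and Nr2c1, and the last 2 were chosen after their values were seen. Nr2c1, an orphan nuclear receptor, had differences of -0.49 with GW4064 and -0.88 with vehicle (adjusted p = 0.0289 and 0.000323). DNA that travels with the targeted locus in a knockout line was not tested.

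Rarres2, the gene of the secreted chemoattractant chemerin, read 9.97, 10.88 and 10.80 in KO livers, against 12.26, 12.39 and 12.61 in WT livers with GW4064. The difference was -1.87 (standard error 0.23, adjusted p = 0.00038), and 6.63 fold with vehicle. Gpld1, a phospholipase that cleaves GPI anchors, had closely spaced values in both groups. It read 9.49, 9.53 and 9.48 in KO livers, against 10.95, 11.07 and 11.12 in WT livers, a difference of -1.54 (standard error 0.07, adjusted p = 1.49e-09). With vehicle the difference was -1.57. Eppk1, a cytoskeletal linker, read 6.24, 6.62 and 6.75 in KO livers, against 8.47, 7.87 and 8.12 in WT livers. It differed by -1.62 with GW4064 and by -0.79 with vehicle, both called (adjusted p = 8.34e-05 and 0.0324). Ank3, a membrane anchor of the cytoskeleton, differed by -1.52 (adjusted p = 0.00369), and Olig1, a transcription factor best known from the glial lineage, by -1.68 (adjusted p = 0.0137).

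Tifa, an adaptor of innate immune signalling, read 6.58, 6.86 and 6.40 in KO livers, against 10.11, 9.09 and 7.71 in WT livers with GW4064. The KO arrays were close together and the WT arrays spread over more than 2 log2 units, all of them above the KO. The difference was -2.36 (standard error 0.40, adjusted p = 0.00883), against -0.83 with vehicle (adjusted p = 0.413). Obp2a, a carrier of small hydrophobic molecules, differed by -2.13 (adjusted p = 0.00038), Tmem267, a membrane protein, by -1.77, and Dct, known as an enzyme of melanin synthesis, by -1.61. The calls of Nr1h4, Ces1g, Hal, Rarres2, Eppk1, Gpld1, Ank3, Tifa and Obp2a held with each of the 6 arrays left out, but those of Tifa and Obp2a were lost when the 6 compared arrays alone were fitted (adjusted p = 0.127 and 0.0661). Tmem267 was lost without KO array 2 (adjusted p = 0.083), WT array 1 (0.0603) or WT array 2 (0.0607), and Olig1 without KO array 2 (0.0693) or WT array 1 (0.0654). Dct was lost with any array but WT array 3 left out (0.0777 to 0.116).

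**Figure D2:**
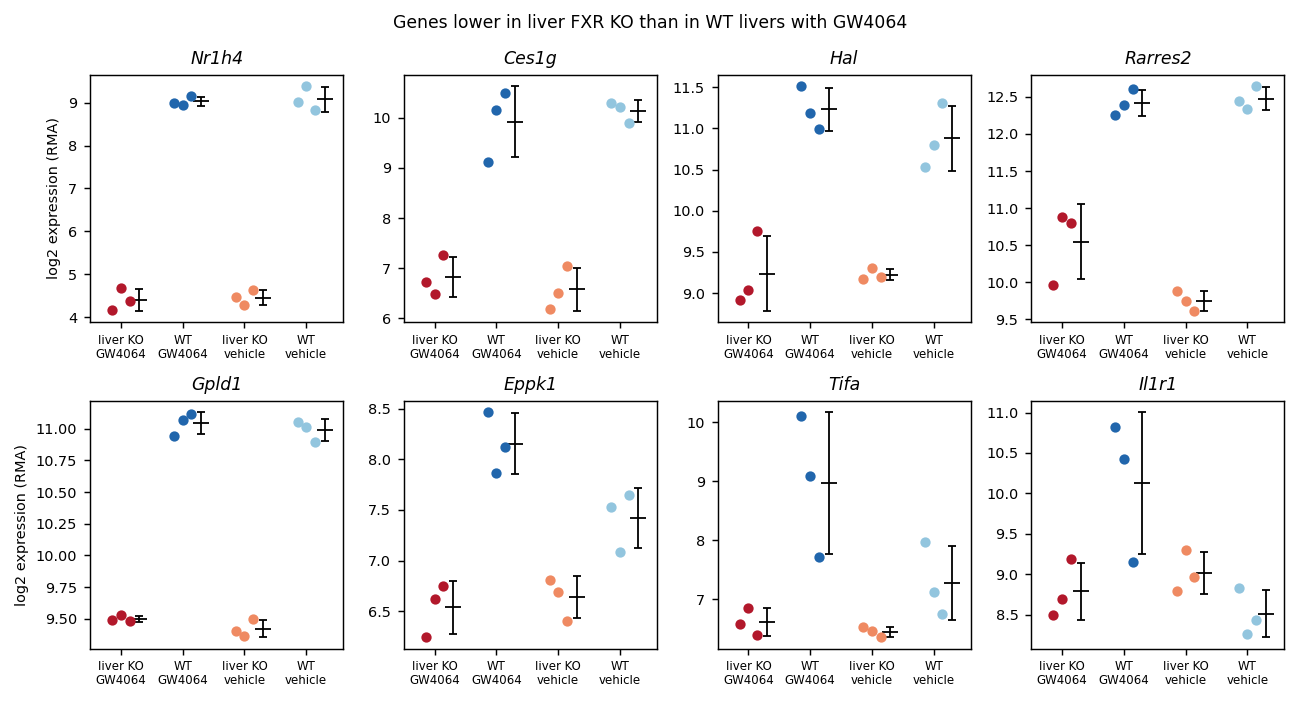
Log2 expression of 8 genes that were lower in liver KO than in WT livers with GW4064, on each array of the 4 groups, each gene on its own axis. Each point is 1 array, and bars give mean and SD (n = 3). Nr1h4, Ces1g, Hal, Rarres2 and Gpld1 are low in both KO groups, while Il1r1 is higher in 2 WT arrays with GW4064 (10.82 and 10.43) than in all other arrays shown.

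G6pc rose by 1.90 and Acot1 by 1.78 on the log2 scale in KO livers with GW4064. G6pc, which releases glucose from its phosphate in the last step of gluconeogenesis, read 12.83, 11.88 and 12.13 in KO livers, against 9.38, 10.37 and 11.37 in WT livers with GW4064. All KO arrays were above the WT arrays, by 1.90 (standard error 0.34, 3.74 fold, adjusted p = 0.0107). With vehicle G6pc read 11.28 to 11.77 in KO livers and 11.65 to 12.10 in WT livers, a difference of -0.42. Without KO array 1 the adjusted p with GW4064 was 0.0708, and with the 6 compared arrays alone it was 0.174. Of 17 measured genes of gluconeogenesis and glucose handling G6pc was the one called (median 0.11), where 1.06% of all genes were. Igfbp1, an insulin-repressed binding protein chosen after its values were seen, had a difference of 1.69 (adjusted p = 0.0723), and Pck1 of -0.06.

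Acot1, a thioesterase that PPARalpha and fasting induce, read 7.31, 7.51 and 7.72 in KO livers, against 5.22, 5.59 and 6.39 in WT livers with GW4064. The difference was 1.78 (standard error 0.29, adjusted p = 0.00498), and with vehicle -0.11. A probe set can read more than 1 of several close copies of this gene. Its paralogs Acot2, Acot3 and Acot4, given after their values were seen, had -0.03, 0.28 and -0.41. Acot1 was the only called gene of 22 measured in fatty acid oxidation and ketogenesis, of which 16 had differences above 0 (median 0.26, and 0.14 without WT array 1). In the list of fatty acid and triglyceride synthesis, none of 22 measured genes was called (median 0.21, and 0.06 without WT array 1). Gpd2, the mitochondrial glycerol phosphate dehydrogenase, rose by 1.26 (adjusted p = 0.0202).

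Tsc22d1, a leucine zipper regulator, read 11.92, 10.51 and 10.96 in KO livers, against 8.31, 9.03 and 9.55 in WT livers with GW4064, a difference of 2.17 (standard error 0.47, adjusted p = 0.0341). Of its 6 probe sets, 4 were higher by 0.83 to 2.33. Igfbp3, which carries insulin-like growth factors in blood, rose by 1.59 (adjusted p = 0.00946). Rgs5, a regulator of G protein signalling best known from pericytes, rose by 1.40, Wdfy1, an endosomal adaptor, by 1.30, and Med12l, a subunit of the mediator complex, by 1.08 (adjusted p = 5.62e-05). Timp3, an inhibitor of matrix proteases, the protease gene Prss23 and Elk3, an ETS factor, rose by 0.97 to 1.09. For Timp3, 1 of 4 probe sets was higher by more than 0.11. The other probe sets of Elk3 had 0.19 and 0.12, and the second of Prss23 had 0.41. For Rgs5 the other probe sets had 2.05, 0.60 and 0.04, and for Wdfy1 0.89 and 0.08. Timp3, Elk3 and Prss23 lost their call when the mean of probe sets was used. Of the 12 largest rises, Acot1, Wdfy1 and Med12l held with each array left out. Each of the others lost its call without WT array 1 (adjusted p = 0.051 to 0.194), except G6pc. Tsc22d1, Rgs5, Gpd2, Timp3, Prss23 and Elk3 also lost it without KO array 1 (0.0554 to 0.16). Rgs5, Gpd2, Timp3, Prss23 and Elk3 lost it without KO array 2 (0.0563 to 0.122), Tsc22d1, Gpd2, Timp3 and Prss23 without KO array 3 (0.0677 to 0.115), and Tsc22d1 and Timp3 without WT array 2 (0.0806 and 0.0523).

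Nnt, the mitochondrial transhydrogenase, read 10.03, 10.09 and 10.05 in KO livers, against 8.54, 8.58 and 8.61 in WT livers with GW4064. The difference was 1.48 (standard error 0.27, adjusted p = 0.0107). With vehicle the KO arrays read 9.84, 10.04 and 8.45, against 8.34, 8.76 and 8.53 in WT livers, so that 1 KO liver with vehicle was at the WT level. C57BL/6J mice are known to carry a deletion in Nnt, and both probe sets of the gene moved together. Tmem267, among the falls above, lies close to Nnt (chr13:119488086-119610459, against chr13:119335527-119409257 for Nnt). In whole-body KO livers with GW4064, Tmem267 had a mean of 4.94 and Nnt of 9.96. A difference in background DNA between the mice was not tested.

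**Figure D3:**
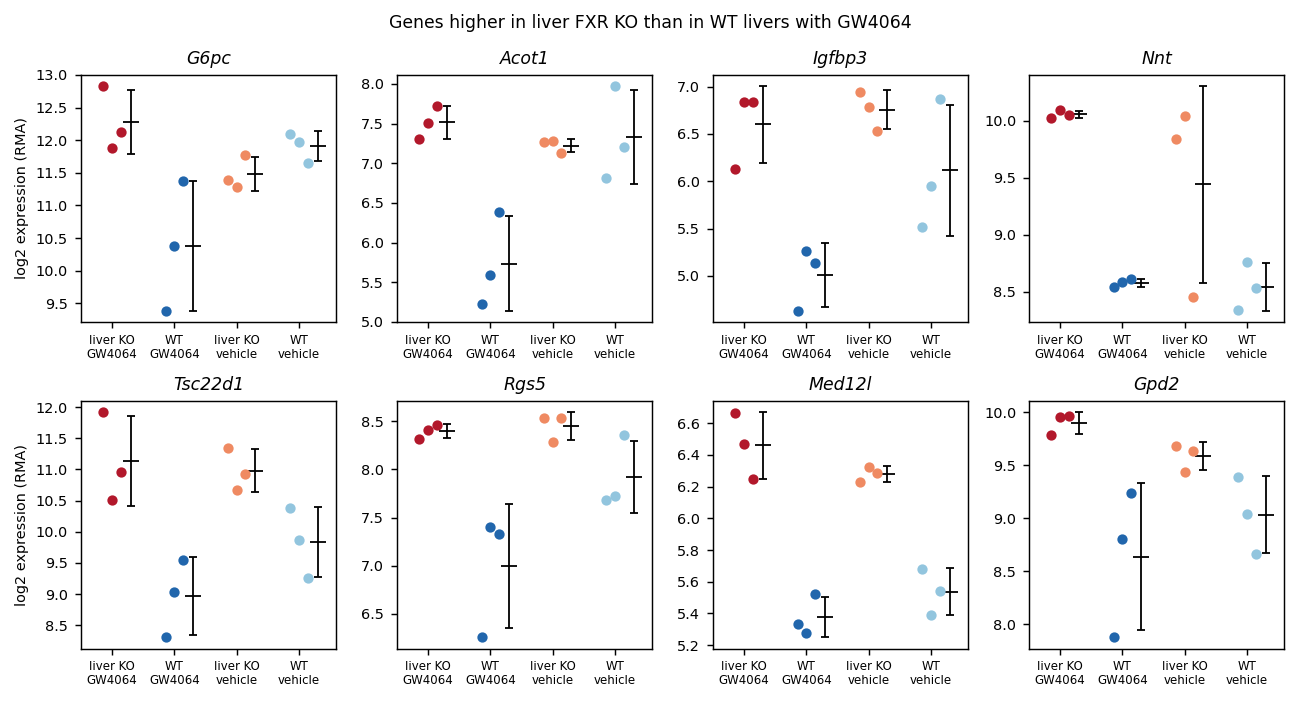
Log2 expression of 8 genes that were higher in liver KO than in WT livers with GW4064, on each array of the 4 groups, each gene on its own axis. Each point is 1 array, and bars give mean and SD (n = 3). For G6pc and Acot1 the WT livers with GW4064 have the lowest mean of the 4 groups, and Nnt of 1 KO liver with vehicle (8.45) lies with the WT livers.

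Genes of cholesterol synthesis and uptake were mostly lower, although a single one passed. Sqle, the epoxidase of the sterol pathway, read 7.88, 8.12 and 7.50 in KO livers, against 9.84, 8.84 and 9.66 in WT livers with GW4064, a difference of -1.61 (standard error 0.32, adjusted p = 0.0201). Without WT array 1 the adjusted p was 0.122, without KO array 1 0.0766 and without KO array 3 0.0827. Whole-body KO livers with GW4064 read 10.36, 9.16 and 9.70, and the liver KO minus whole-body KO difference was -1.91 (adjusted p = 0.0076) for Sqle. Of 18 measured genes of the list, 17 had differences below 0 (median -0.52). In 8 of the 18 the groups did not overlap, against 17.8% of all genes. With vehicle 17 were below 0 as well (median -0.63), with none called. Hmgcs1, the synthase at the start of the pathway, chosen after its values were seen, had -1.12 (adjusted p = 0.0547).

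Of 26 measured acute-phase genes, whose products the liver secretes in inflammation, 25 had differences below 0 with GW4064 (median -0.56) and none was called. With vehicle, 20 had differences above 0 (median 0.15). Lcn2, which binds bacterial siderophores, read 7.97, 7.54 and 9.39 in KO livers, against 13.65, 12.91 and 8.22 in WT livers with GW4064. WT arrays 1 and 2 were high, and WT array 3 lay among the KO arrays. The difference was -3.29 (standard error 1.05, adjusted p = 0.146). With vehicle Lcn2 read 8.34 to 9.52 in KO livers and 5.70 to 6.43 in WT livers. Orm2, an orosomucoid, read 7.78, 7.38 and 7.76 in KO livers, against 12.59, 11.745 and 7.81 in WT livers. Lcn2 and Orm2 were picked with their values in view. The list's median per array, relative to the WT mean with GW4064, was -0.44, -0.69 and -0.66 in KO livers, against 0.48, 0.10 and -0.56 in WT livers. The median difference was -0.82 without WT array 3 and -0.25 without WT array 1.

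Il1r1, the receptor of interleukin 1, read 8.49, 8.69 and 9.18 in KO livers, against 10.82, 10.43 and 9.15 in WT livers with GW4064. WT array 3 lay within the KO range, and the difference was -1.34 (standard error 0.31, adjusted p = 0.049). Its adjusted p was 0.0504 to 0.246 when any of the other 5 arrays was left out, and 0.000354 without WT array 3. Il1r1 was the one called of 18 measured genes of interleukin 1 and 6 signalling (median -0.07), where 1.06% of all genes were. None of 21 NF-kB targets and chemokines was called (median -0.05). Of 7 metallothionein and zinc transport genes, the zinc importer gene Slc39a4 fell by 0.65 (adjusted p = 0.0341).

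Interferon-induced genes were put together as a list after the values were seen, so their counts and medians are a description only. Of 33 measured, 5 fell and none rose, against 0.718% and 0.339% of all genes (median -0.32, and -0.06 with vehicle). Nmi, which binds STAT proteins, read 7.81, 7.77 and 7.85 in KO livers, against 8.50, 8.26 and 8.53 in WT livers with GW4064, a difference of -0.62 (adjusted p = 0.0102). The RNA sensor genes Ifih1 and Ddx60 fell by 0.47 and 0.58, Parp12 by 0.52 and the chemokine gene Cxcl11 by 0.64. The list's median per array was -0.35, -0.35 and -0.39 in KO livers, against 0.06, 0.04 and -0.08 in WT livers.

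**Figure D4:**
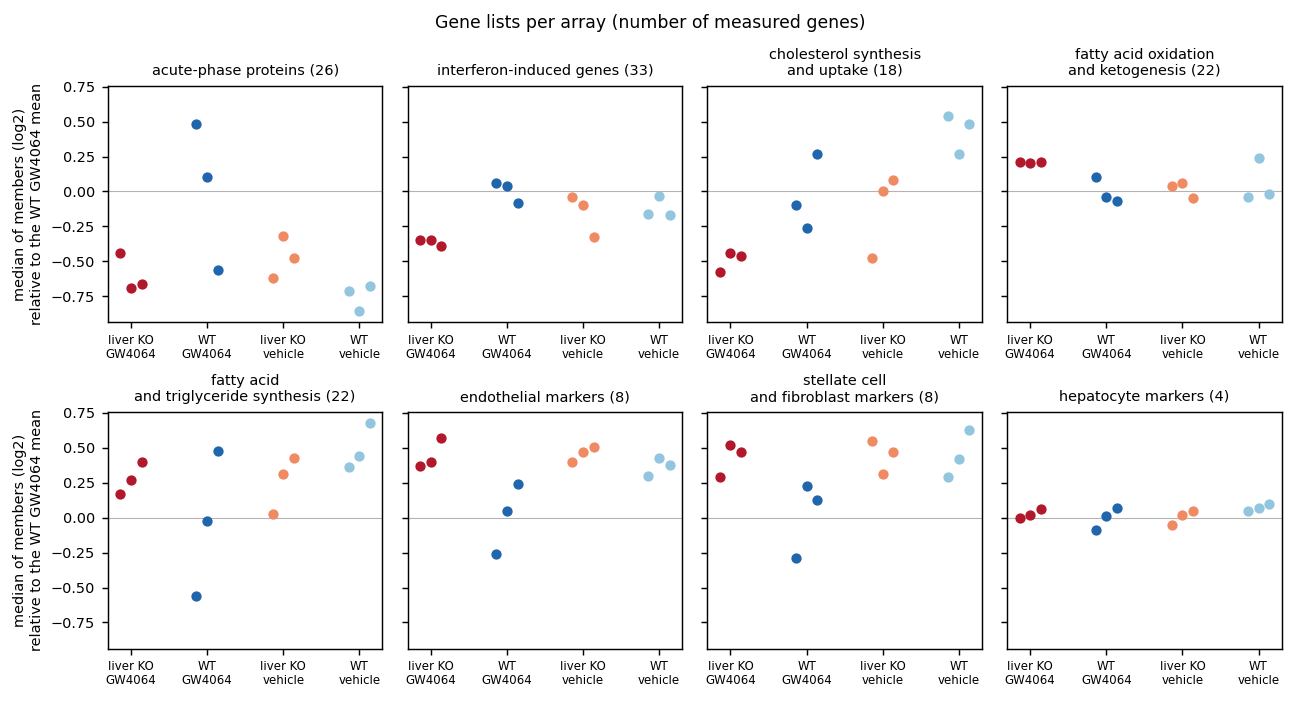
Median of the members of 8 gene lists on each array, as log2 difference from the WT mean with GW4064, in the 4 groups. Points are arrays and the number of measured genes stands in brackets. Acute-phase genes are high in 2 WT arrays with GW4064 (0.48 and 0.10), and the endothelial and stellate cell lists are lowest in WT GW4064 array 1.

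In further lists, 1 or 2 members fell and none rose. For these lists and those above, the shares over all genes were 0.718% lower and 0.339% higher. Of 20 measured lipoprotein genes, Apoc2, the cofactor of lipoprotein lipase, fell by 0.80 and Scarb1, the receptor of high-density lipoprotein, by 0.57 (adjusted p = 0.0289 and 0.0486), and the list's median was 0.02. Of 18 genes of histidine and amino acid breakdown, Hal and the kynurenine hydroxylase gene Kmo fell, Kmo by 0.55 (adjusted p = 0.0142). Adh4, an alcohol dehydrogenase that oxidises retinol, fell by 1.11 (adjusted p = 0.0467), as the one called of 19 genes of retinol metabolism. Nqo1, a quinone reductase and NRF2 target, fell by 0.90 (adjusted p = 0.0399), alone among 14 NRF2 genes. F7, coagulation factor 7, fell by 0.40 (adjusted p = 0.0467), alone among 28 genes of complement and coagulation. The calls of Apoc2, Scarb1, F7 and Adh4 were each lost when any array but WT array 3 was left out (0.056 to 0.244), that of Nqo1 with any array left out (0.0504 to 0.153). Kmo was lost without KO array 2 (0.0783) or WT array 1 (0.0911), and Slc39a4 without KO array 1 (0.157), KO array 3 (0.107), WT array 1 (0.133) or WT array 2 (0.0597). No gene was called in the lists of iron handling, glutathione transferases, PXR and CAR drug metabolism, sulfotransferases, clock, cell cycle, autophagy, endoplasmic reticulum stress, pericentral or sex-biased genes, whose medians lay between -0.06 and 0.30.

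Slc46a3, Fmo5, Pemt and Prodh were also called, and are given as 4 examples chosen after their values were seen. Slc46a3, a lysosomal transporter, read 7.07, 7.43 and 7.24 in KO livers, against 8.18, 8.99 and 8.75 in WT livers with GW4064, a difference of -1.39 (adjusted p = 0.00129). Fmo5, a flavin monooxygenase, read 10.64, 10.81 and 11.12 in KO livers, against 12.10, 11.81 and 11.97 in WT livers, a difference of -1.10 (adjusted p = 0.000193). Both were also lower with vehicle (-0.89 and -0.71, adjusted p = 0.0305 and 0.00995). Pemt, which makes phosphatidylcholine by methylation, fell by 0.61, and Prodh, the first enzyme of proline breakdown, by 0.74 (adjusted p = 0.014 for both), with no overlap between the groups in either.

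No marker of another liver cell type was called. Cholangiocyte and T and B cell markers had medians of 0.04 and 0.05. All 8 endothelial markers had differences above 0 (median 0.45, none called), with a mean level of 6.93 to 7.15 in KO livers and 6.27 to 6.81 in WT livers with GW4064. All 8 stellate cell and fibroblast markers did so too (median 0.39, none called), at 6.74 to 6.88 in KO livers and 5.95 to 6.59 in WT livers. With vehicle the medians were 0.09 and 0.08. Without WT array 1, which was the lowest for both lists, they were 0.28 and 0.18. Of 7 macrophage markers 6 were above 0 (median 0.43, none called), with mean levels of 7.93 to 8.16 in KO livers and 7.26 to 8.41 in WT livers, which overlapped. With vehicle 6 of the 7 were above 0 as well (median 0.27), and with GW4064 the median was 0.23 without WT array 1 and 0.78 without WT array 2. In bulk liver, fewer cells of a type and less RNA per cell cannot be told apart. The part of these cells in the rises of Rgs5, Timp3, Elk3 and Igfbp3 was not tested.

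To see how much of the genotype difference was there without the agonist, the same difference was taken in the vehicle groups. These share no array with the groups compared above. The fit took 1 spread per gene from all 18 arrays, so the 2 sets of calls are not fully independent. With vehicle, 109 genes were called (0.879%), 48 higher and 61 lower in KO than in WT livers. A total of 29 genes were called with both, all in the same direction, 23 lower and 6 higher, which is 22.1% of the genes called with GW4064 and 26.6% of those called with vehicle. Of the 131 genes called with GW4064, 115 had the same sign with vehicle, as did 58.8% of all genes. Their median size was 0.69 with GW4064 and 0.37 with vehicle, and selection on the GW4064 arrays can enlarge that side. Across genes, which are not independent replicates, the 2 differences had r = 0.35 and rho = 0.27.

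Whether the KO minus WT difference itself depended on the agonist was tested for each gene. No gene passed in limma on the 18 arrays (lowest adjusted p = 0.437), while 925 genes had an unadjusted p under 0.05, which is 7.46%. G6pc had a change of the difference of 2.33 (unadjusted p = 0.000169), Acot1 of 1.89 (0.000232), Il1r1 of -1.85 (0.000641) and Eppk1 of -0.83 (0.00279). Hal, Gpld1 and Nr1h4 had -0.34, 0.02 and -0.01. The count rested on WT GW4064 array 3: without it, 50 of 12394 genes passed, 18 with a positive and 32 with a negative change. Among them were 13 of the 26 acute-phase genes, all with a negative change, and G6pc, Acot1, Il1r1, Cyp7a1, Tifa and Elk3. Lcn2 then had -7.65, Saa2, a serum amyloid, had -6.32 and Orm2 had -5.41 (adjusted p = 0.0021, 0.0021 and 0.00738), which were chosen after their values were seen. WT array 3 had the lowest acute-phase median of the WT arrays with GW4064 (-0.56, against 0.48 and 0.10). Leaving it out raises the WT level of that list, so the passing of its members follows in part from the array left out. Without KO array 2, 1 gene passed, which was Igfbp1 (3.82). With WT array 1, WT array 2, KO array 1 or KO array 3 left out, none passed. A call with GW4064 and none with vehicle was thus not by itself a tested difference.

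**Figure D5:**
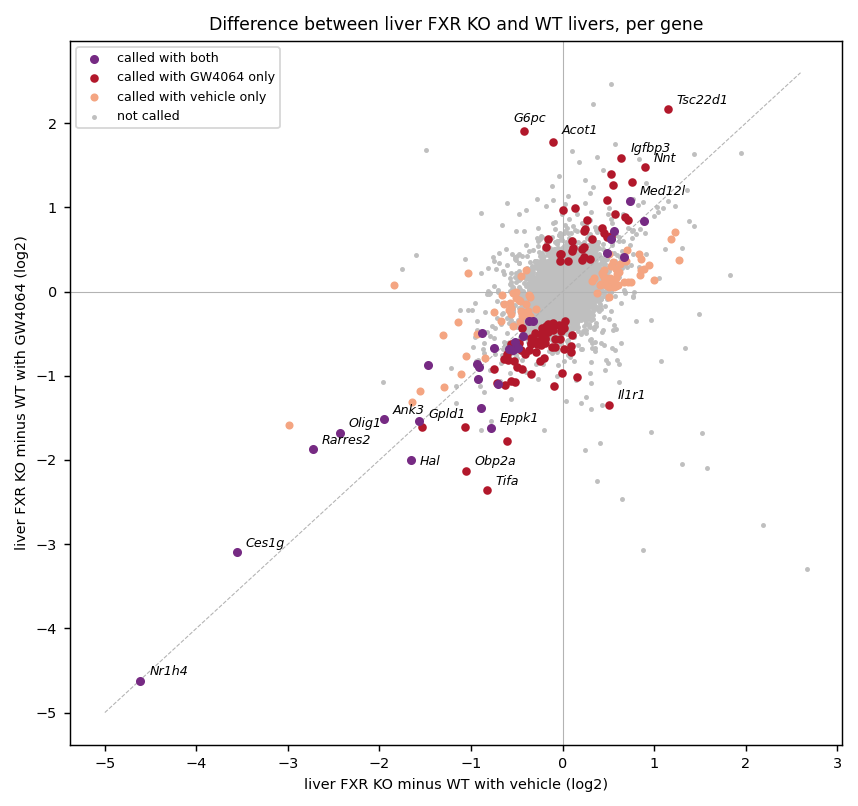
KO minus WT difference with GW4064 (vertical axis, log2) against the same difference with vehicle (horizontal axis, log2) for 12394 genes, with the dashed line of equal differences. Colours mark genes called in both, in one or in neither comparison. Nr1h4, Ces1g and Gpld1 lie near the line, while G6pc, Acot1 and Il1r1 lie on opposite sides of 0 in the 2 comparisons.

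Liver KO livers were also set against whole-body KO livers with GW4064, which lack FXR in the intestine too. Between these groups 223 genes were called (1.8%), 89 higher and 134 lower in the liver KO. Of the 131 genes called against WT, 18 were among them. Both comparisons used the same liver KO arrays with GW4064, so a deviation of those arrays enters both. The shared calls are therefore not independent evidence. Ces1g was lower in the liver KO by 1.65 (adjusted p = 0.0105), and Ank3 by 1.88 (adjusted p = 0.00076). Ank3 read 4.65, 5.17 and 5.01 in liver KO livers, against 6.96, 6.54 and 6.96 in whole-body KO livers. Akr1d1 was 0.95 lower in the liver KO (adjusted p = 0.0105) and Nqo1 0.92 lower (adjusted p = 0.0237), while Prss23 was 1.02 lower (adjusted p = 0.0278). For Hal, Rarres2, Tifa, Eppk1 and G6pc the groups differed by 0.01 to 0.18 in size, with adjusted p-values of at least 0.811. The liver and whole-body lines may differ in DNA besides the FXR locus, which was not tested.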

How the data were processed

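Liver RNA was measured on 1 array per sample, in 18 samples of 6 groups, taken from the sample titles. The authors normalized the arrays with RMA (version not given in the sources used here) and deposited log2 expression per probe set. These probe sets belong to an array type other than the one that the paper's methods name. Through the platform annotation, 20393 of 22690 probe sets had a single gene symbol, 691 had several and 1606 are unnamed here; 20364 matched GRCm38.p6 by gene identifier. The probe set with the highest mean stood for a gene. No value was filtered, no detection calls came with the values, and precision is limited by the number of arrays.

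Groups were compared with limma 3.58.1 in R 4.3.3 (lmFit, eBayes, 6 group means, 12 residual degrees of freedom, two-sided, Benjamini-Hochberg over 12394 genes). Arrays of a group are not stated to come from separate litters or days, so p-values measure the spread between these samples. Scripts were tested on simulated data. Named genes were Nr1h4, the 12 largest rises and 12 largest falls called with groups that do not overlap (predicted genes passed over), up to 4 called members of each list, and Nr0b2, Cyp7a1, Cyp8b1, Csad, Abcb11, Abcb4, Slc51a, Fgf15, Fgfr4 and Klb. Members, lists and tests were chosen with earlier results of these data known. Alternatives were array weights, a robust trended prior, quantile normalization, median centring, a fit on the compared arrays only, 40% of genes left out by mean, the mean of probe sets, a replicate block, each array left out, the methods' t-test and the study's thresholds (unadjusted p under 0.05, 1.5 fold). A fit leaving out WT GW4064 array 1 with whole-body KO GW4064 array 3, and one on the liver KO and WT arrays were added after seeing the data. Plots were drawn with matplotlib 3.10.9 in Python 3.11.15.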

Additional observations from a re-analysis of the deposited data

Results flagged for a closer look

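For 5 of the 44 named genes, every KO array lay on one side of the WT mean with GW4064 and on the other side with vehicle. This rule asks for no size of difference. The share of all genes that meet it was not counted, so the 5 are a description only. The change of the KO minus WT difference was 2.33 for G6pc, 1.89 for Acot1 and -1.85 for Il1r1 on the log2 scale (unadjusted p = 0.000169, 0.000232 and 0.000641, limma), and none of these passed the adjustment over all genes. Without WT GW4064 array 3 they did, with 2.82, 2.22 and -2.34 (adjusted p = 0.0021, 0.00939 and 0.0021). With any other of the compared arrays left out, none of them passed. For Slc51a the change was 0.32 (unadjusted p = 0.0228) and for Fgf15 -0.21 (unadjusted p = 0.214), at levels of 4.11 to 4.70 in the groups compared. The KO livers with GW4064 read 11.88 to 12.83 for G6pc and 7.31 to 7.72 for Acot1, and the WT livers with vehicle read 11.65 to 12.10 and 6.81 to 7.98.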

How the results depend on the processing

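Of 35 named genes that were called, 12 stayed called with each of the 6 arrays left out and 10 under all 16 alternatives, and none changed sign. On the 6 compared arrays alone, 20 of the 35 lost their call, 16 genes were higher and 20 lower, and 16 were called between the knockouts with GW4064. Array weights gave 70 higher and 217 called with vehicle. The methods' t-test gave 2 higher and 3 lower after adjustment, and 63 and 92 at the study's thresholds, where limma gave 123 and 162. Without WT GW4064 array 1 and whole-body KO GW4064 array 3 together (added after seeing the data), 22 were higher, 55 lower and 218 called with vehicle. Leaving out 1 array gave 10 to 184 higher, 32 to 234 lower and 0 to 50 for the agonist-dependent difference. No other alternative moved a count by over 1.5 times. The replicate block gave 56 higher and 105 lower, of which 122 genes were shared with the 131, and the agonist-dependent count stayed at 0. Deviations from the group mean had r = -0.03, -0.06 and -0.04 between same-numbered KO and WT arrays with GW4064. With vehicle r was 0.12, -0.05 and -0.02. With so few arrays per group, these values cannot show whether the numbers pair samples. Uncalled genes near 0 changed sign: Abcb4 read -0.003 with quantile normalization and -0.052 to 0.087 with single arrays left out, Csad -0.518 to 0.16 with single arrays left out, and Klb 0.108 with array weights, 0.068 without both named arrays, and -0.189 to 0.179 with single arrays left out. The cause was not tested. Medians of gene lists moved by more than the spread between arrays in 47 of 654 cases.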
